A study of Mus musculus with 6 samples.

Results

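The splicing regulators examined here are the genes named as SR proteins (Srsf), heterogeneous nuclear ribonucleoproteins (hnRNPs, Hnrnp), RNA-binding motif proteins (Rbm), the U2 auxiliary factor (U2af) and the CLK kinases (Clk1 to Clk4). They were taken by name from the deposited count table, without pseudogene, opposite-strand and Rik rows, which gave 77 of 56674 rows: 11 SR proteins, 20 hnRNPs, 39 RBM proteins, 3 U2af genes and 4 CLK kinases. Their expression was compared between livers of male C57BL/6 mice aged 71 weeks given chow with polypropylene microplastic (PP-MP, 3 libraries) and livers of male C57BL/6 mice of that age on normal chow (control, 3 libraries). No allele or agent other than the plastic is named, and the sources used here state neither the amount of plastic eaten, nor its particle size, nor how long it was fed. The labels name the plastic as PP-MP in the sample titles and diets, but a protocol field that all 6 samples share reads PS-MP. They do not say whether the libraries of a group came from separate mice, so p-values measure the spread between libraries, which may be technical.

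Pre-mRNA splicing depends on proteins that mark where exons begin and end. SR proteins bind exons and recruit the spliceosome, many hnRNPs bind the same transcripts and block or redirect it, and U2AF recognises the 3′ splice site. CLK kinases phosphorylate the arginine-serine domains of SR proteins and release them from nuclear speckles. Many of these genes control their own output through alternative exons or retained introns that send the transcript to nonsense-mediated decay (NMD) or hold it in the nucleus.

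The libraries held 91936078, 81073738 and 100252360 counts in PP-MP and 75897165, 68357478 and 112566641 counts in control. The 77 genes took 0.213%, 0.239% and 0.240% of the counts in PP-MP against 0.168%, 0.185% and 0.177% in control. An 18S ribosomal RNA row took 0.655% to 0.750% in PP-MP and 1.15% to 11.2% in control, highest in control 2, so levels are given as CPM (counts per 1e6 counts of the library) scaled by the trimmed mean of M values (TMM). On that scale the 77 genes summed to 1937, 2125 and 2325 CPM in PP-MP and 1753, 2095 and 1900 CPM in control, which overlapped. All 10 hepatocyte markers were detected, and their summed level was 79540 to 88220 CPM in PP-MP and 72040 to 85980 CPM in control. All 10 Kupffer cell or macrophage markers were fitted higher in PP-MP, with sums of 636, 374 and 174 CPM in PP-MP against 164, 132 and 175 CPM in control. The 5 neutrophil markers summed to 3.02 to 23.0 CPM in PP-MP and 1.18 to 1.75 CPM in control, where Ly6g was at 0. The other marker lists had median log2 fold changes of 0.20 (sinusoidal endothelium), 0.0046 (stellate cells), −0.050 (cholangiocytes), −0.57 (T or NK cells), −0.69 (B or plasma cells) and −0.20 (dividing cells). The B or plasma cell median hid a gene that went the other way: Ighm, the IgM heavy chain, was at 338, 57.6 and 0.928 CPM in PP-MP against 0.882, 1.13 and 0.899 CPM in control. The 6 markers of that list summed to 386, 77.5 and 8.04 CPM in PP-MP and 38.7, 55.9 and 19.0 CPM in control. In bulk liver, fewer cells of a type and less RNA per cell cannot be told apart, and the part of these markers in the results below was not tested.

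Many splicing regulators were higher in PP-MP livers, but none passed the adjusted threshold in the main test. Of the 77 genes, 71 had enough counts to be tested. Under edgeR's quasi-likelihood test with Benjamini-Hochberg adjustment over 18284 genes, 0 of the 71 had an adjusted p under 0.05 (range 0.13 to 0.998), and 2 of all genes, 0.0109%, passed. At an unadjusted p under 0.05, 18 of the 71 (25.4%) were higher and 3 (4.23%) lower, where all genes gave 8.05% higher and 5.81% lower. In 19 members (26.8%) every PP-MP library lay above every control library and in 8 (11.3%) every one lay below, where all genes gave 12.2% above and 9.79% below. DESeq2, the alternative test, called 5 members higher (7.04%) and 3 lower (4.23%), with 2.38% of all genes called higher and 1.87% lower. The higher 5 were Clk2, Srsf7, Hnrnpdl, Rbm4b and Rbm5, and the lower 3 were U2af1l4, Hnrnpc and Rbm47. The members' median log2 fold change was 0.13, beside 0.029 for all genes tested, with 40 members fitted higher and 31 lower. The 95% interval stayed within 1 log2 unit of no change for 40 members (56.3%) and for 46.3% of all genes.

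These counts depended on single libraries. Without control 2, the edgeR test called 3 of 72 tested members, Clk1, Rbm4b and U2af1l4, and 92 of 19277 genes in place of 2. At an unadjusted edgeR p under 0.05, 36.1% of the members were then higher and 4.17% lower, beside 13.0% and 7.82% of all genes. In that setting 45.8% of the members lay wholly above and 15.3% wholly below the control libraries, beside 24.8% and 19.3% of all genes. With any other single library left out, 27.8% to 33.8% of the members lay above and 11.1% to 16.9% below. All genes then gave 15.9% to 19.2% above and 12% to 15.2% below. Without control 1, the members with an unadjusted edgeR p under 0.05 were 8 higher and 3 lower (11.1% and 4.17%, beside 6.53% and 3.66% of all genes). Without PP-MP 3 they were 9 higher and 4 lower (12.7% and 5.63%, beside 7.31% and 5% of all genes). Over 15 alternative settings and tests (edgeR, DESeq2 and limma), the adjusted p ranged from 0.0295 to 0.541 for Clk1, from 2.63e-10 to 0.457 for Rbm4b and from 1.18e-06 to 0.457 for U2af1l4. For the other 6 members that DESeq2 called the highest adjusted p was between 0.457 and 0.476. The median of the members was 0.067 without PP-MP 2 and 0.24 without control 2. No median of all genes was set beside these values, so a shift of the members alone cannot be read from them.

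**Figure D1:**
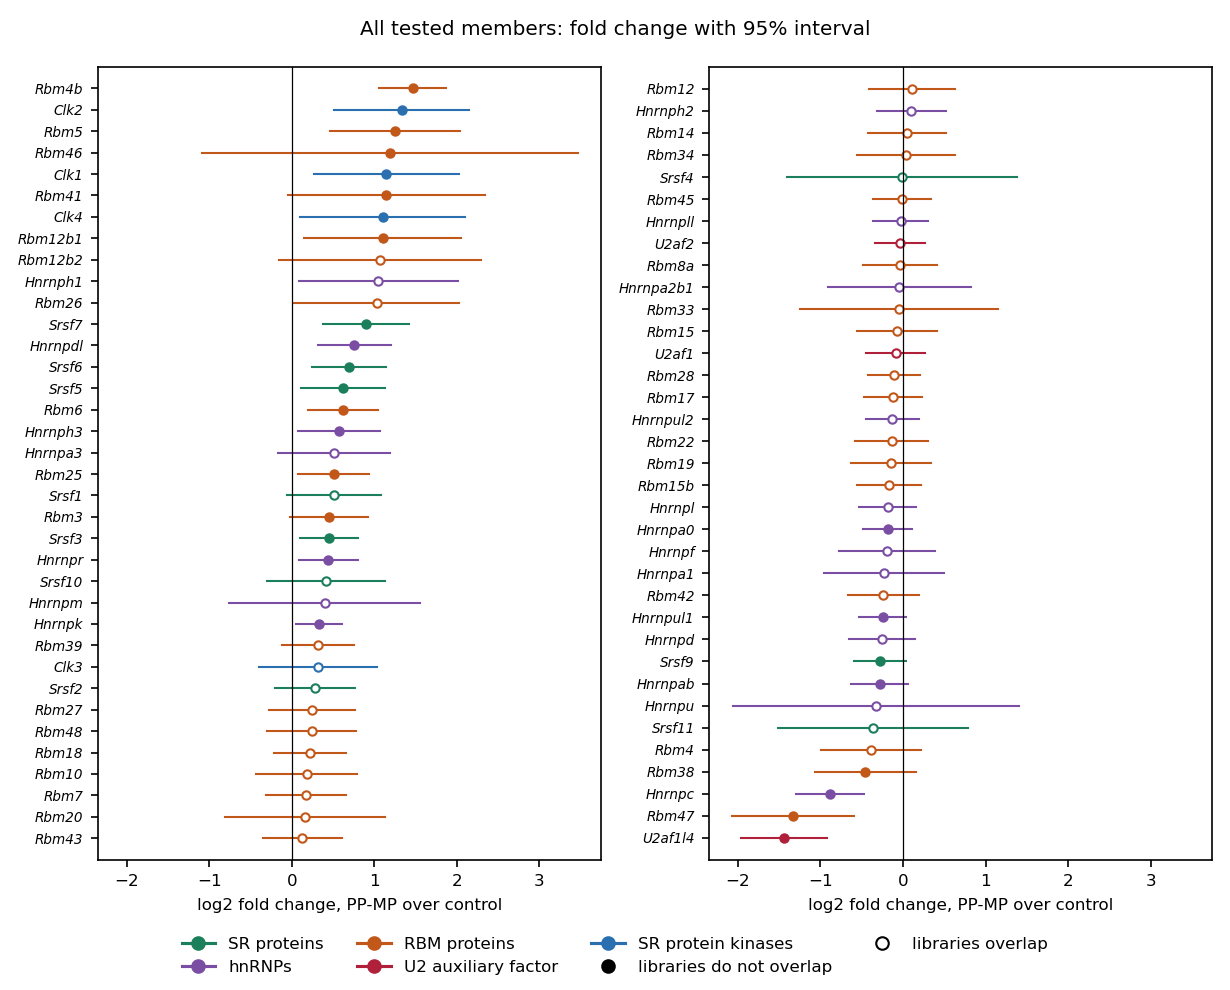
Log2 fold change of PP-MP over control (x axis) for each of the 71 tested members, with the 95% interval of the edgeR fit as a line and the gene family as colour. Filled points are genes whose PP-MP and control libraries do not overlap. Rbm4b stands at the top at 1.46 and U2af1l4 at the bottom at −1.45.

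The CLK kinases gave the highest family median, 1.12 on the log2 scale. Clk1 had 57.2, 60.5 and 71.2 CPM in PP-MP livers against 21.1, 46.5 and 17.9 CPM in control livers. All PP-MP libraries lay above all controls, and control 2 was the nearest to them. The log2 fold change of Clk1 was 1.14 (SE 0.37, edgeR adjusted p 0.292), and without control 2 it was 1.71 (edgeR adjusted p 0.0295). Clk1 also had the highest level per kilobase of exon in its family, 7.74 CPM per kb in PP-MP and 3.51 CPM per kb in control.

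Clk2 had 3.62, 6.23 and 3.47 CPM in PP-MP livers against 1.25, 2.29 and 1.76 CPM in control livers, again without overlap. Its log2 fold change was 1.33 (SE 0.34, edgeR adjusted p 0.233), and DESeq2 called it with an adjusted p of 0.0168. Clk4 had 8.83, 14.0 and 8.67 CPM in PP-MP livers against 2.63, 7.78 and 4.29 CPM in control livers, which gave 1.10 on the log2 scale (SE 0.42, edgeR adjusted p 0.339). The groups of Clk4 did not overlap either. Clk3 averaged 15.0 ± 4.24 CPM in PP-MP and 12.1 ± 3.53 CPM in control (SD, n = 3 each), with overlapping libraries and a log2 fold change of 0.31 (SE 0.30). The ratio of Clk4 to its close relative Clk1, whose coding sequences were 74.8% identical over the aligned bases and shared no 75-base window (a length chosen here, as the sources used here do not state the read length), was 0.154, 0.232 and 0.122 in PP-MP and 0.125, 0.167 and 0.239 in control. The groups overlapped in this ratio (exact two-sided permutation p 0.7). The 250 bases upstream of the Clk4 start, shown because this was the 1 member promoter of 64 that held the cyclic AMP response element TGACGTCA, are given in the direction of the gene with that element and the GC box GGGCGG in capitals (RefSeq, GRCm38.p6, chr11:51262864-51263113, plus strand).
Clk4 promoter: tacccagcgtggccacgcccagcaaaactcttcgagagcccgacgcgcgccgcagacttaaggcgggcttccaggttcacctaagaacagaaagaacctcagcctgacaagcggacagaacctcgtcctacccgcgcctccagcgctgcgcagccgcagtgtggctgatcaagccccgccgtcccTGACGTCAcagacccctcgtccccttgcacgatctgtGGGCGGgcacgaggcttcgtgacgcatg

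Of the 10 tested SR proteins, 4 (40%) had an unadjusted edgeR p under 0.05 and higher levels in PP-MP: Srsf3, Srsf5, Srsf6 and Srsf7. At that p 0 were lower, where all genes gave 8.05% higher and 5.81% lower. The family median was 0.43 on the log2 scale. Srsf7, an SR protein with a zinc knuckle beside its RNA-recognition domain, had 13.8, 14.4 and 13.8 CPM in PP-MP livers against 7.69, 9.42 and 5.42 CPM in control livers. The PP-MP libraries were close to each other and all lay above control, and the log2 fold change was 0.90 (SE 0.22, edgeR adjusted p 0.22, DESeq2 adjusted p 0.0169). Srsf6, which binds exonic enhancers, had 57.6, 63.9 and 56.5 CPM in PP-MP livers against 45.8, 29.3 and 35.2 CPM in control livers, which gave 0.69 on the log2 scale (SE 0.19, edgeR adjusted p 0.244).

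Srsf5 had the highest level per kilobase of exon among the SR proteins, at 49.7 CPM per kb in PP-MP and 32.4 CPM per kb in control. Its libraries were at 179.5, 193 and 222 CPM in PP-MP and 117, 167 and 103 CPM in control, with no overlap and a log2 fold change of 0.62 (edgeR, SE 0.21, adjusted p 0.309). Srsf3, the smallest SR protein and the nearest relative of Srsf7, had 39.4, 41.0 and 44.1 CPM in PP-MP livers against 27.6, 35.7 and 28.2 CPM in control livers (log2 fold change 0.44, SE 0.15). The ratio of Srsf3 to Srsf7 counts was 2.85, 2.84 and 3.20 in PP-MP against 3.59, 3.79 and 5.20 in control. It was lower in every PP-MP library, and its exact permutation p was 0.1, the smallest that 3 against 3 libraries can give, or 0.133 adjusted over the 4 ratios tested.

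The remaining SR proteins did not move together. Srsf1, the founding member of the family, averaged 43.8 ± 1.45 CPM in PP-MP and 30.9 ± 10.4 CPM in control (SD, n = 3 each). Srsf10 averaged 25.8 ± 2.33 CPM in PP-MP and 19.4 ± 8.54 CPM in control, and Srsf2 averaged 42.4 ± 9.42 CPM in PP-MP and 34.9 ± 4.93 CPM in control. The libraries of these 3 genes overlapped, with control 2 as the highest control for Srsf1 and Srsf10. Srsf9 was at 15.2, 16.2 and 18.0 CPM in PP-MP against 20.6, 18.9 and 20.5 CPM in control. It was the 1 SR protein below control in every PP-MP library (log2 fold change −0.28, SE 0.13). Srsf11 (log2 fold change −0.36, SE 0.48) and Srsf4 (−0.01, SE 0.58) had wide 95% intervals, and the sign of each turned with single libraries left out. The 43.0% of Srsf4 exon bases that Gm12992 overlaps on the other strand make its count uncertain, since the sources used here do not state whether counting used the strand. Gm12992 had 43, 380 and 91 counts in PP-MP and 6, 185 and 8 counts in control, and its highest library of each group was the lowest of that group for Srsf4.

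**Figure D2:**
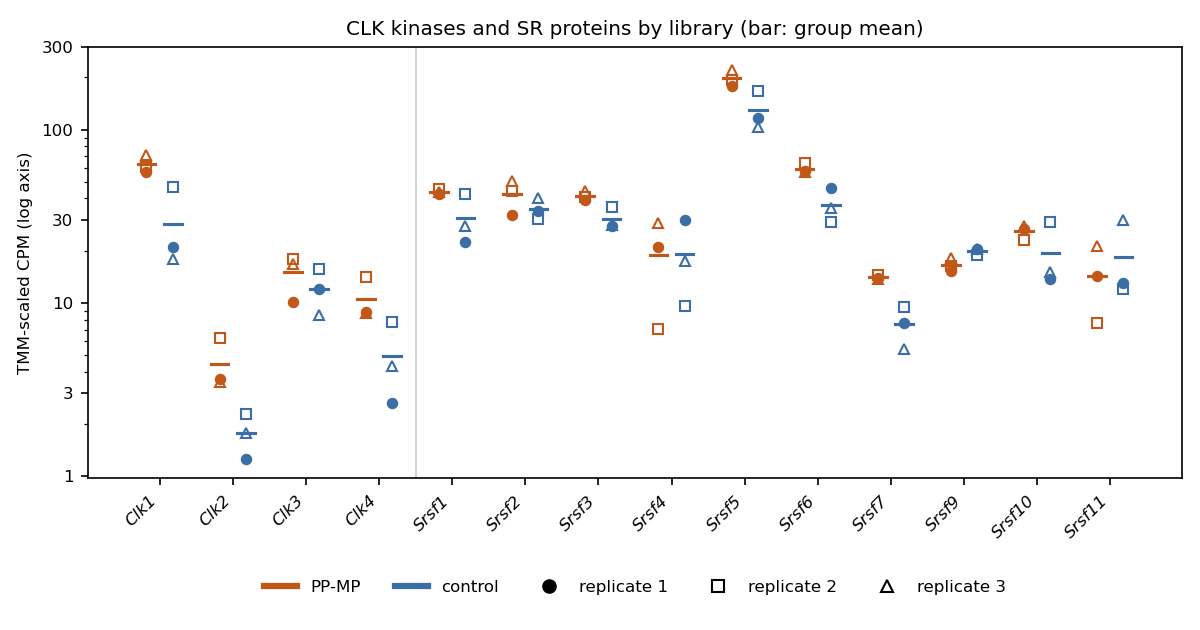
TMM-scaled CPM on a log axis for the 4 CLK kinases and the 10 tested SR proteins, with 1 symbol per library and a bar at each group mean. Clk1 is at 57.2 to 71.2 CPM in PP-MP and 17.9 to 46.5 CPM in control, and control 2 is the highest control for Clk1, Clk2, Clk4, Srsf3, Srsf5 and Srsf7.

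The Srsf7 promoter is shown for its GC boxes and for TCCCCGCC, letters described as a mild-cold element of the cold-inducible gene Cirbp. The capitals mark 3 GC boxes (GGGCGG or its complement CCGCCC), the last of which overlaps the TCCCCGCC match (RefSeq, GRCm38.p6, chr17:80207306-80207555, minus strand, written in the direction of the gene).
Srsf7 promoter: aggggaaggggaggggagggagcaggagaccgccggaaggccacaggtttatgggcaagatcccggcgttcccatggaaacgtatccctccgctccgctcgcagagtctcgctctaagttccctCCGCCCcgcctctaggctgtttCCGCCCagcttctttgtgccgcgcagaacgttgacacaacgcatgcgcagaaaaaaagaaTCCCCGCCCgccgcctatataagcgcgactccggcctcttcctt

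The 3 genes of the U2 auxiliary factor divided into a pair near the control level and a low paralogue. U2af2, the large subunit that binds the polypyrimidine tract, averaged 38.1 ± 3.64 CPM in PP-MP and 39.1 ± 1.91 CPM in control (log2 fold change −0.03, SE 0.13). U2af1, the small subunit that reads the AG at the 3′ splice site, averaged 37.2 ± 5.25 CPM in PP-MP and 39.5 ± 3.17 CPM in control (log2 fold change −0.09, SE 0.15). The 95% intervals of both stayed between −0.45 and 0.27, and both estimates turned positive when CPM was scaled by library totals, which also moved the median of all genes up by 0.23. U2af1l4, a paralogue of the small subunit on chromosome 7, was at 2.87, 2.67 and 3.19 CPM in PP-MP against 9.18, 6.09 and 8.52 CPM in control. Every PP-MP library lay below every control, with a log2 fold change of −1.45 (edgeR, SE 0.22, adjusted p 0.183), and DESeq2 called it with an adjusted p of 1.18e-06.

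The difference was seen in the U2af1l4 count row and not in its sum with an overlapping row. In GENCODE M21, 65.6% of the exon bases of U2af1l4 (GRCm38, chr7:30563301-30565365, plus strand) also belong to Gm49396, a protein-coding model on the same strand. Gm49396 had 764, 1007 and 1007 counts in PP-MP against 174, 111 and 154 counts in control, the opposite direction to U2af1l4. Its log2 fold change was 2.31 (SE 0.26, edgeR adjusted p 0.13, DESeq2 adjusted p 1.97e-12). The ratio of Gm49396 to U2af1l4 counts was 2.63, 4.14 and 3.05 in PP-MP and 0.261, 0.302 and 0.173 in control. With the counts of both rows added, an alternative chosen after seeing the data, the sum was 10.4, 13.7 and 12.9 CPM in PP-MP and 11.6, 7.93 and 9.99 CPM in control. These sums overlapped, with a log2 fold change of 0.33 (edgeR, SE 0.20, adjusted p 0.487), so the sum was not lower in PP-MP. How many of the Gm49396 counts came from exons outside U2af1l4 was not measured. The sources used here do not state how the authors' counting divided reads between the rows.

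The coding sequences of U2af1l4 and U2af1 themselves were 75.2% identical over the aligned bases and shared no 75-base window. Shorter reads could still match both. The first 90 coding bases of both are shown with their 23 differences in capitals (GENCODE M21, U2af1 on chromosome 17).
U2af1l4: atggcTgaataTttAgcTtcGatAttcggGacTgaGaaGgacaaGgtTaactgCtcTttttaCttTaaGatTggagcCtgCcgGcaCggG
U2af1: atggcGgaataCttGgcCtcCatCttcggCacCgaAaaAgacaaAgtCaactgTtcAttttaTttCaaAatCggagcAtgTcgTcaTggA
The count of U2af1l4 per count of U2af1 was 0.0880, 0.0742 and 0.0743 in PP-MP against 0.222, 0.147 and 0.238 in control (exact permutation p 0.1, the smallest possible).

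Rbm4b had the highest log2 fold change and the smallest p of the RBM proteins. It was at 13.6, 15.5 and 16.5 CPM in PP-MP against 5.01, 6.42 and 5.12 CPM in control, far apart from the control libraries. Its log2 fold change was 1.46 (SE 0.17), which ranked 7 of 18284 genes by edgeR's p (adjusted p 0.13), and DESeq2 gave an adjusted p of 2.63e-10. Rbm4, its neighbour on chromosome 19 and a regulator of alternative splicing with the same domain layout, was at 6.13, 7.18 and 7.72 CPM in PP-MP and 7.48, 12.6 and 7.44 CPM in control. The Rbm4 libraries overlapped (log2 fold change −0.39, SE 0.25, edgeR adjusted p 0.521). Counts of Rbm4b per count of Rbm4 were 2.22, 2.17 and 2.13 in PP-MP and 0.670, 0.509 and 0.688 in control. Rbm4b thus had the larger count of the pair in every PP-MP library and the smaller in every control. The log2 ratio of counts was 1.82 higher in PP-MP (exact permutation p 0.1, the smallest possible) and 1.68 to 1.90 higher with any 1 library left out. Merged over all annotated transcripts, exon lengths differ, with 9979 bases in Rbm4b and 4940 in Rbm4. The Rbm4b exons fill most of its gene span of 10569 bases, retained introns included, and its coding sequence has 1071 bases. Per kilobase of merged exon, Rbm4b and Rbm4 averaged 1.52 and 1.42 CPM in PP-MP and 0.553 and 1.86 CPM in control. Which transcripts were present was not measured, so these values do not show which gene had the higher level.

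The 2 paralogues are close in sequence, and part of their reads could be shared. Their coding sequences were 87.1% identical, and 35.2% of the 75-base windows of Rbm4b coding sequence also occurred in Rbm4. Over the whole annotated transcripts of Rbm4b the share was smaller. Of those 75-base windows, 3.54% occurred in the same sense in any other gene. The first 90 coding bases, shown because they did not differ at any position, are those of both genes (GENCODE M21, chromosome 19).
Rbm4b and Rbm4: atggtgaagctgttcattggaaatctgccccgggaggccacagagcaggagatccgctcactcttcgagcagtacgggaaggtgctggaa
Upstream of the starts the genes differed. Rbm4b (chr19:4756275-4756524, plus strand) held 3 GC boxes and 2 CCAAT boxes, and the Rbm4 start nearer its gene body (chr19:4793902-4794151, minus strand) held 5 CCAAT boxes and no GC box. Both are shown in the direction of the gene with these boxes in capitals (RefSeq, GRCm38.p6).
Rbm4b promoter: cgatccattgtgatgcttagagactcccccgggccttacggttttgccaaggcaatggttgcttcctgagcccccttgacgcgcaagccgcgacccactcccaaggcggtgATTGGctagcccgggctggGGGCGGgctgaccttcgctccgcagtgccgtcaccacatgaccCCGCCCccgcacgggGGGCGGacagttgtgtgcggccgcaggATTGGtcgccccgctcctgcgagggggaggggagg
Rbm4 promoter: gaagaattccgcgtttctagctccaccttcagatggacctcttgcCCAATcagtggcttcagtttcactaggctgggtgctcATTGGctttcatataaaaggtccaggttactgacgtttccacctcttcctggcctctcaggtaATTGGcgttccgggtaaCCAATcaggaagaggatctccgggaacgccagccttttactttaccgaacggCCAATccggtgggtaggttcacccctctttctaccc
On the other strand, Gm37206 overlaps 30.8% of the Rbm4b exon bases but had at most 1 count in any library. On the same strand, the model Gm21992 shares 60.5% of the Rbm4 exon bases. It had 82, 116 and 89 counts in PP-MP and 42, 102 and 32 counts in control, and adding them left Rbm4 at a log2 fold change of −0.33 (SE 0.27).

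**Figure D3:**
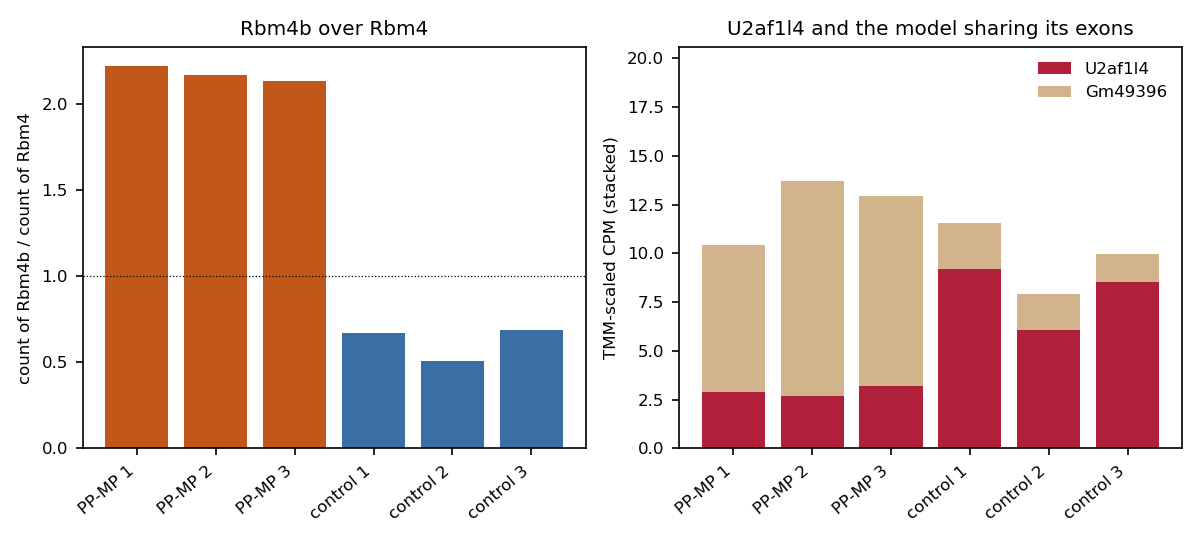
Left, counts of Rbm4b per count of Rbm4 in each library, with a dotted line at 1: PP-MP bars are at 2.13 to 2.22 and control bars at 0.509 to 0.688. Right, TMM-scaled CPM of U2af1l4 and of Gm49396 stacked for each library: the U2af1l4 part is smaller in PP-MP, while the stacked heights of the groups overlap.

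Of the 34 tested RBM proteins, 6 (17.6%) had an unadjusted edgeR p under 0.05 and were higher in PP-MP, and 1 (2.94%) was lower. All genes gave 8.05% higher and 5.81% lower. Rbm5, which regulates exon choice in apoptosis genes, was at 20.1, 22.4 and 31.3 CPM in PP-MP against 14.2, 10.6 and 6.20 CPM in control. Its groups did not overlap, with a log2 fold change of 1.25 (edgeR, SE 0.33, adjusted p 0.239, DESeq2 adjusted p 0.0191). Its relative Rbm6 was at 22.0, 21.8 and 24.1 CPM in PP-MP against 14.1, 18.1 and 12.1 CPM in control (log2 fold change 0.61, SE 0.18, edgeR adjusted p 0.253). Rbm25, a splicing factor that associates with the U1 particle, averaged 18.4 ± 3.62 CPM in PP-MP and 13.0 ± 1.22 CPM in control, without overlap (log2 fold change 0.51, SE 0.18). The other members on that side were Rbm12b1 (log2 fold change 1.10) and Rbm26 (1.03), both outside the naming rule and added after their values were seen. Rbm12b1 was 98.1% identical to Rbm12b2 in aligned coding sequence, so its count is uncertain. Rbm3, the cold-inducible member, was at 47.3, 40.3 and 46.0 CPM in PP-MP and 24.0, 38.8 and 34.9 CPM in control, an unadjusted p of 0.06 in edgeR, and was also named after its values were seen.

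Rbm47 was the lowest RBM protein relative to control. This RNA-binding cofactor of Apob mRNA editing in mouse liver was at 15.4, 9.47 and 6.85 CPM in PP-MP against 29.2, 21.9 and 28.7 CPM in control. All PP-MP libraries lay below all controls, with a log2 fold change of −1.33 (edgeR, SE 0.31, adjusted p 0.212, DESeq2 adjusted p 0.0056). Rbm38, a regulator of mRNA stability, was at 2.43, 3.91 and 3.90 CPM in PP-MP against 5.28, 4.78 and 3.99 CPM in control (log2 fold change −0.46, SE 0.26). Rbm42, the RBM protein of highest level per kilobase, averaged 31.8 ± 3.93 CPM in PP-MP and 37.5 ± 7.08 CPM in control, with overlap (log2 fold change −0.24, SE 0.18). The model Gm21982 shares 75.4% of the Rbm42 exon bases on the same strand. It had 29, 11 and 23 counts in PP-MP and 7, 110 and 0 counts in control. Rbm44 had no count in any library, and Rbm11, Rbm24, Rbm31y, Rbm8a2 and Srsf12 had at most 18 counts in a library and were not tested.

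Of the 20 hnRNPs, 5 (25%) were higher and 1 (5%) lower at an unadjusted edgeR p under 0.05, where all genes gave 8.05% and 5.81%. By library, 4 (20.0%) lay wholly above and 4 (20.0%) wholly below control, where all genes gave 12.2% above and 9.79% below. The family median was −0.09, with 8 hnRNPs fitted higher and 12 lower. Hnrnpc, which binds uridine tracts and competes with U2AF at 3′ splice sites, was at 16.3, 23.1 and 18.0 CPM in PP-MP against 38.0, 36.5 and 31.2 CPM in control. Its groups were far apart, with a log2 fold change of −0.88 (edgeR, SE 0.17, adjusted p 0.183, DESeq2 adjusted p 0.00159). Hnrnpab, the hnRNP of highest level per kilobase, averaged 101 ± 13.4 CPM in PP-MP and 123 ± 2.62 CPM in control (log2 fold change −0.28, SE 0.14). Hnrnpul1 averaged 50.2 ± 2.52 CPM in PP-MP and 59.5 ± 3.32 CPM in control (log2 fold change −0.25, SE 0.12), and neither of these overlapped. Phykpl overlaps 29.1% of the Hnrnpab exon bases on the other strand. It was at 13.1, 13.5 and 15.9 CPM in PP-MP and 9.97, 10.1 and 12.8 CPM in control.

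On the higher side, Hnrnpdl, a relative of Hnrnpd that regulates its own splicing, was at 29.0, 37.1 and 32.6 CPM in PP-MP against 21.7, 15.3 and 21.3 CPM in control. The groups did not overlap, and the log2 fold change was 0.76 (SE 0.18, edgeR adjusted p 0.222, DESeq2 adjusted p 0.0379). Hnrnpk, a poly(C)-binding protein, averaged 126 ± 2.81 CPM in PP-MP and 100.1 ± 3.35 CPM in control, a small and even difference (log2 fold change 0.33, SE 0.12, edgeR adjusted p 0.318). Hnrnpr averaged 27.1 ± 1.59 CPM in PP-MP and 20.0 ± 2.97 CPM in control (log2 fold change 0.44, SE 0.15). Hnrnph3 (log2 fold change 0.57) and Hnrnph1 (1.05), both named after their values were seen, made up the 5 hnRNPs with an unadjusted edgeR p under 0.05 on that side. For Hnrnpu, singled out for its spread, PP-MP libraries were at 39.5, 45.8 and 43.1 CPM, and control libraries at 13.4, 28.7 and 119.5 CPM, the last in control 3. Cox20, which overlaps 6.93% of the Hnrnpu exon bases on the other strand, was also highest in control 3, at 10.7 CPM against 1.92 and 2.07 CPM in the other controls.

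The members that were higher in PP-MP at an unadjusted edgeR p under 0.05 were mostly genes annotated with transcripts subject to NMD and with retained introns. The grouping by annotated transcript kind was chosen after the values were seen, so its counts are a description. Of the 35 tested members with both kinds in GENCODE M21, 15 (42.9%) were higher at an unadjusted edgeR p under 0.05 and 1, U2af1l4, was lower, with a median log2 fold change of 0.32. Among 2869 other protein-coding genes with both kinds, 7.49% were higher and 4.95% lower, with a median of 0.025. Of the 19 members with one of the 2 kinds, 0 were higher and 2 (10.5%), Hnrnpc and Rbm47, were lower, with a median of −0.12, where other protein-coding genes of that class gave 5.82% higher and 6.48% lower. Of the 17 members with neither, 3 (17.6%) were higher and 0 lower, with a median of 0.11, where other protein-coding genes of that class gave 5.65% higher and 6.63% lower. Gene counts do not separate the transcripts of a gene, so which transcripts made up the higher levels was not measured.

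**Figure D4:**
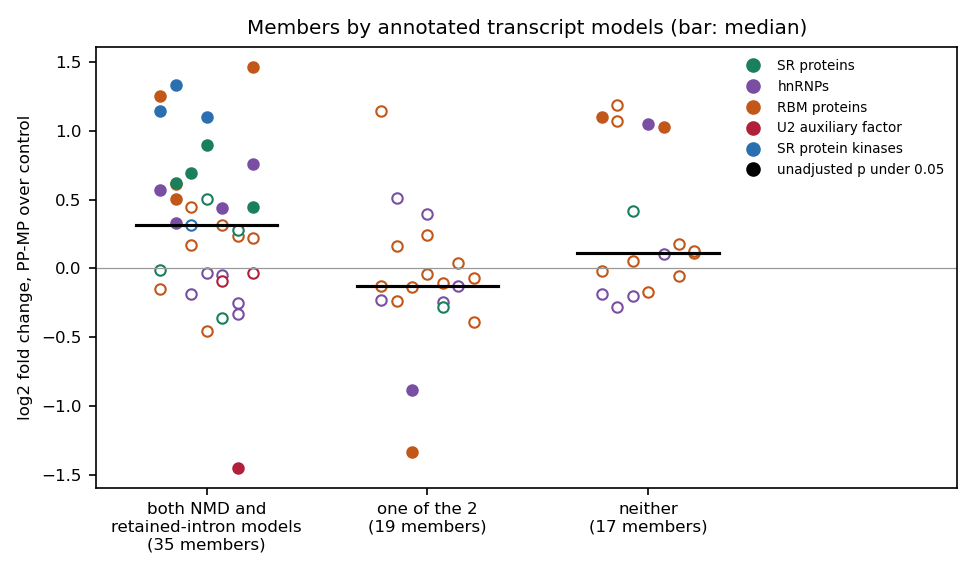
Log2 fold change of PP-MP over control for the 71 tested members, grouped by whether GENCODE M21 annotates both NMD and retained-intron transcripts, one of them, or neither; the colour gives the family, filled points an unadjusted edgeR p under 0.05, and bars the medians. The medians are 0.32, −0.12 and 0.11.

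By library, the mean log2 CPM of the CLK kinases relative to the control mean was 0.74, 1.33 and 0.98 in PP-MP and −0.36, 0.62 and −0.25 in control. The same mean was taken over a list of 7 long non-coding RNAs, among them Malat1, Neat1, Snhg1 and Gas5. Malat1 and Neat1 mark nuclear speckles and paraspeckles, but where the RNAs of this list lay in the cell was not measured. The list mean was 1.20, 1.02 and 1.01 in PP-MP and −0.23, 0.74 and −0.51 in control. In both groups of genes control 2 was the control nearest to PP-MP. Neat1 was at 231, 180.5 and 94.5 CPM in PP-MP against 30.2, 60.4 and 6.34 CPM in control. All 7 RNAs of the list were fitted higher, 3 of them (42.9%) with an unadjusted edgeR p under 0.05, beside 8.05% of all genes. SR proteins had means of 0.31, 0.14 and 0.55 in PP-MP, with every control within 0.031 of the control mean. The part of nuclear RNA content, 18S share or any other difference between libraries in these values was not tested.

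**Figure D5:**
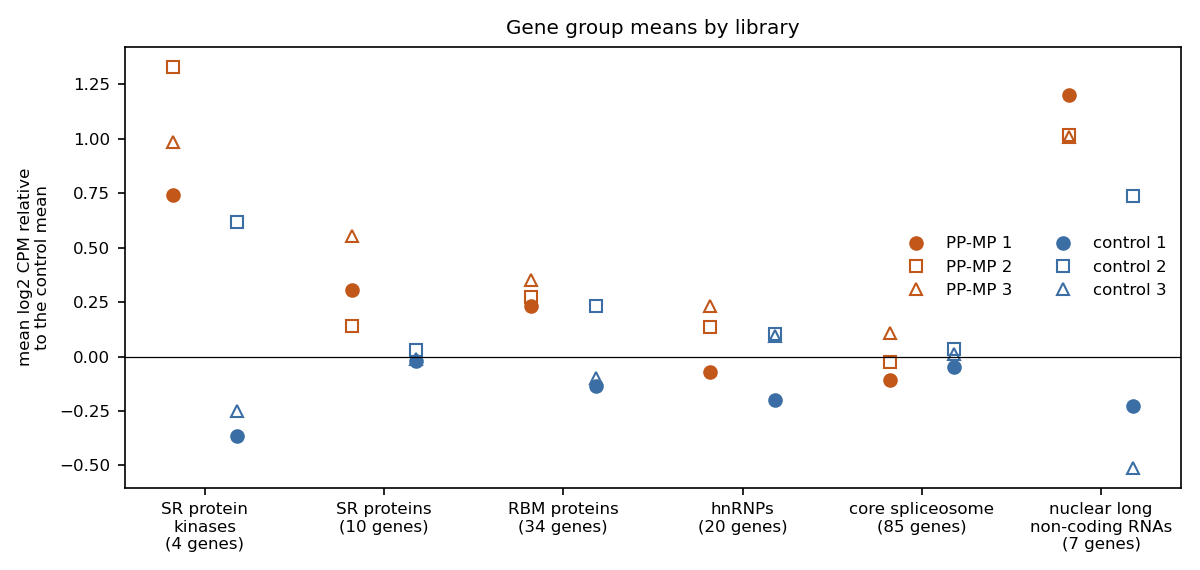
Mean log2 CPM of each gene group in each library, relative to the mean of the 3 control libraries, for the CLK kinases (SR protein kinases), SR proteins, RBM proteins, hnRNPs, core spliceosome and the list of long non-coding RNAs (labelled as nuclear). Control 2 lies at 0.62 for the CLK kinases and 0.74 for the long non-coding RNAs, and the core spliceosome lies between −0.11 and 0.11 in every library.

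Other splicing genes were compared as lists of named genes. Of 85 core spliceosome genes, 7 (8.24%) were higher and 7 (8.24%) lower at an unadjusted edgeR p under 0.05. All genes gave 8.05% higher and 5.81% lower, so these shares were near those of all genes. The median log2 fold change of the list was −0.070, and 83.5% of its intervals lay within 1 log2 unit of no change. DESeq2 called 3 of the 85 higher (3.53%, beside 2.38% of all genes). They were Snrnp70 (log2 fold change 1.23), the U1-specific protein, Rnpc3 (1.12), of the minor spliceosome, and Prpf40b (0.88). Ddx39b, an RNA helicase that works with U2AF, had a log2 fold change of −0.97 (SE 0.31). Of 71 other splicing regulators, 8 (11.3%) were higher and 3 (4.23%) lower at that unadjusted p, with a median of 0.12. The leading genes of that list were Pnn (1.46), Sugp2 (0.67), Fubp3 (0.52) and Tia1 (1.15). DESeq2 called Pnn and Tia1 higher (2.82% of the list, beside 2.38% of all genes). Of 18 other kinases and phosphatases of SR proteins, 0 were higher and 1 (5.56%), the phosphatase subunit Ppm1g (−0.38), was lower at that unadjusted p.

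Of 24 clock, cold and heat response genes, 2 (8.33%) were higher and 2 (8.33%) lower at an unadjusted edgeR p under 0.05. All genes gave 8.05% higher and 5.81% lower. The higher genes were Hspa8 (log2 fold change 0.55) and Per2 (1.15), and the lower were Hspb1 (−0.74) and Cry1 (−1.14). Cirbp, the cold-inducible relative of Rbm3, was at 9.12, 10.4 and 11.5 CPM in PP-MP and 9.22, 9.12 and 6.52 CPM in control. The sources used here do not state the hour of collection, and its part in the levels of these genes was not tested.

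Promoter letters were compared over the 64 members matched in the RefSeq promoter table, in the 250 bases upstream of each start and on both strands. A gene with several starts counted if any of them matched. The genes set beside the members were all those in the table, not matched by expression, kind of gene or number of starts. Whether a higher share is particular to splicing regulators was therefore not tested. The GC box GGGCGG occurred in 60.9% of the members and in 35.4% of all 27025 genes in the table, and the CCAAT box in 48.4% of the members and 37.5% of all genes. The E-box CACGTG occurred in 12.5% of the members and 6.86% of all genes, and TCTCGCGA in 6.25% of the members (Hnrnph3, Rbm15, Rbm39 and Srsf4) and 0.977% of all genes. The shares were close for TCCCCGCC, with 6.25% of the members and 5.37% of all genes, for TGACGTCA, with 1.56% of the members and 1.77% of all genes, and for the heat shock core GAANNTTC, with 7.81% of the members and 7.73% of all genes. TCCCCGCC and GGGCGG can overlap, as in Srsf7, and such matches describe letters, not binding.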

How the data were processed

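Liver RNA of 6 samples was measured, 3 PP-MP and 3 control. Per the labels' protocols, total RNA was purified, poly(A) RNA selected and directional libraries made. The authors deposited raw read counts per gene, not normalized, and the per-sample files matched the columns of the series table in every cell. Per the submitters' processing notes, bcl2fastq was used and the build was GRCm39. The sources used here do not name the aligner, the counting tool, its strand setting or the annotation. The members, gene lists and tests were chosen with earlier results of these data known.

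Counts were tested with edgeR 4.0.16 (quasi-likelihood, TMM scaling, its default filter on low counts, adjusted p threshold 0.05) in R 4.3.3 on all 18284 genes that passed, with 3 libraries per group and no covariate. The step was also run on simulated counts drawn for each gene separately. That run does not cover deviations that many genes of a library share. Fold changes are PP-MP over control, and ± is the SD. DESeq2 1.42.0 and limma 3.58.1 were alternatives. Named genes were all tested Srsf, U2af and Clk members, the 3 higher and 3 lower hnRNPs and the 4 higher and 4 lower RBM proteins of smallest unadjusted p with a mean CPM of at least 1, the member of highest level per kilobase in each family, and at most 4 genes of each other list. All 77 members were found by symbol in GENCODE M21 (GRCm38), which gave exon lengths, overlaps and coding sequences and may differ from the annotation the authors counted with. Exon length was that of all annotated transcripts of a gene merged. Paralogue identity was computed with Biopython 1.88. Libraries of a group differed by far more than sampling noise, and samples with the same replicate number did not deviate together (correlations −0.066, −0.087 and 0.047). Depth was 68357478 to 112566641 counts per library, so counting error is small for all but the lowest members, and the spread between libraries limits precision.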

Additional observations from a re-analysis of the deposited data

How the results depend on the processing

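Across the alternatives, the number of all genes called was 777 with DESeq2, 1 with library totals, 1 with limma-voom, 0 with the replicate block and 0 to 92 with 1 library left out, against 2 in edgeR. DESeq2 called 8 members (11.3%, beside 4.25% of all genes), and leaving out 1 library in edgeR gave 0 to 3. Members with an unadjusted p under 0.05 numbered 11 to 29 with 1 library left out and 17 of the 21 with the replicate block, whose pairing the data do not bear out. With 1 library left out, 11.1% to 36.1% of the members were higher and 4.17% to 5.63% lower. The shares of all genes were then 5.52% to 13.0% and 3.18% to 7.82%. With the replicate block the members gave 19.7% and 4.23%, beside 6.01% and 3.93% of all genes. Members without overlap numbered 29 to 44 with 1 library left out and 48 without both control 2 and PP-MP 1. With 1 library left out, 27.8% to 45.8% of the members lay above and 11.1% to 16.9% below. All genes then gave 15.9% to 24.8% above and 12% to 19.3% below. Without both control 2 and PP-MP 1, 51.4% of the members lay above and 15.3% below, beside 29.0% and 24.4% of all genes. With library totals 34 were higher and 3 lower (47.9% and 4.23%), beside 24.5% and 2.59% of all genes. The median of the members was 0.356 with library totals, where that of all genes was 0.263, and 0.304 without both control 2 and PP-MP 1. For the latter setting no median of all genes was set beside it. The sign turned for Srsf4 (0.183 with library totals, 0.0318 with no filter, 0.0245 with a mean CPM of at least 1, 0.0145 without 18S and mitochondrial rows, and −0.445 to 0.504 with 1 library left out), for U2af1 (0.141 with library totals, 0.0321 with control 2 and PP-MP 1 left out), and for U2af2 (0.199 with library totals, 0.00575 with no filter, −0.111 to 0.0232 with 1 library left out). It also turned for Srsf11 (−0.756 to 0.214 with 1 library left out), for the log2 ratio of Clk4 over Clk1 (−0.318 to 0.176 with 1 library left out) and for U2af1l4 with the counts of Gm49396 added (0.33). The cause of these shifts was not tested. The settings for the added model and for the ratios with libraries left out were chosen after seeing the data.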
